A study of Mus musculus with 17 samples.

Results

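Adipose tissue macrophages of mice on a high fat, high sucrose diet (ATM HFD, 5 libraries) were compared across all genes with Cx3cr1-positive liver macrophages of mice on that diet (Cx3cr1pos HFD, 4 libraries), so 9 of the 17 libraries of the series were compared. The libraries were taken by their source labels from the deposited count table. The ATM HFD cells were sorted from adipose tissue on F4/80 and CD64 and carry the label frac_neg. The Cx3cr1pos HFD cells were sorted from liver on the GFP reporter of Cx3cr1 and carry the label frac_pos. Mice of both groups were C57BL/6 of the Cx3Cr1-GFP/WT line, in which GFP stands in for a copy of the Cx3cr1 gene, and all had eaten the D12492 diet of Research Diets for 16 weeks. Kupffer cells sorted from liver as F4/80hi and TIM4-positive after the same diet (HFD KC, 5 libraries, some labelled frac_neg and some CD68) or after standard chow (STD KC, 3 libraries) shared the fit and are given here as levels only. Tissue and gate changed together between the groups, so the effect of the tissue and the effect of the sort cannot be told apart. No label says that the libraries of a group came from separate animals, or whether animals were pooled, so p-values measure the spread between these libraries, which may be technical.

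Macrophages in fat and in liver share a core of lysosomal and phagocytic genes and add genes set by the tissue. In obese fat they surround dying adipocytes, take up lipid and store it in droplets, and those next to vessels carry scavenger and lectin receptors. In the liver, Kupffer cells of embryonic origin sit in the sinusoids, clear blood cells and recycle their iron, and depend on BMP, TGF-beta, Notch and LXR signals, while Cx3cr1 marks monocytes and some of the macrophages that derive from them.

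Total counts were 26.3 to 34.9 M in ATM HFD libraries and 25.6 to 38.2 M in Cx3cr1pos HFD libraries. Levels are CPM, the counts of a gene scaled to the same total in every library, and 3 counts correspond to 0.0785 to 0.117 CPM. Mitochondrially encoded genes took 0.598 to 1.36% of the counts in ATM HFD and 0.295 to 0.453% in Cx3cr1pos HFD, and the part of this difference in the results was not tested. In a principal component analysis of all 17 libraries, the first component carried 57.5% of the variance. It separated the ATM HFD libraries (-130.3 to -118.6) from the Cx3cr1pos HFD libraries (11.66 to 24.38), with HFD KC (51.26 to 72.52) and STD KC (81.2 to 89.02) further along. On the second, with 12% of the variance, the library Cx3cr1pos HFD hfd2 had the highest value of its group (-42.44, against -77.57 to -55.25 in the other 3). It also held several genes that were high in ATM HFD at higher levels than the rest of its group, so some results that it moves are given with and without it. Values by library follow the order hf1, hf2, hf3, hfd1 and hfd2 for ATM HFD and hf1, hf2, hf3 and hfd2 for Cx3cr1pos HFD.

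Of the sort markers, Cx3cr1, Timd4 and Fcgr1 were lower in ATM HFD, and Adgre1 overlapped between the groups. Cx3cr1, the receptor of fractalkine and the gene that carries the reporter, had 9.29, 30, 19.3, 19 and 12.9 CPM in ATM HFD and 462, 439, 378 and 284 CPM in Cx3cr1pos HFD, against 4.88 to 14.7 CPM in HFD KC. Adgre1, which encodes F4/80, averaged 3415 ± 759 CPM in ATM HFD and 2673 ± 711 CPM in Cx3cr1pos HFD (SD, n = 5 and 4, here and below), and Fcgr1, which encodes CD64, averaged 252 ± 84.8 CPM in ATM HFD and 430 ± 32.4 CPM in Cx3cr1pos HFD. Timd4, which encodes TIM4, had 4.01 to 8.2 CPM in ATM HFD and 25.5 to 42.4 CPM in Cx3cr1pos HFD, while HFD KC had 388 to 1613 CPM. These genes were part of the sorts of the series, Timd4 only of that of Kupffer cells, and are given as a check, not a result. Of the 5 genes in the list of sort markers, 3 were also members of other lists, and the counts of those lists include them. Cd68, a lysosomal glycoprotein of macrophages, averaged 3774 ± 305 CPM in ATM HFD and 2632 ± 108 CPM in Cx3cr1pos HFD. The 16 genes common to macrophages were all detected, with a summed level of 29591 to 32255 CPM in ATM HFD and 32246 to 35074 CPM in Cx3cr1pos HFD. By the test described below, 10 of them (62.5%) were lower and 2 (12.5%) higher in ATM HFD, against 20.8% and 18.9% of all genes tested. Their median log2 fold change was -0.53, with a range of -1.98 to 2.2.

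Of 15285 genes tested, 6073 (39.7%) differed at an adjusted p under 0.05 by edgeR's quasi-likelihood test with Benjamini-Hochberg adjustment. Of these, 2893 (18.9%) were higher and 3180 (20.8%) lower in ATM HFD, and 3467 (22.7%) differed at least 2-fold, 1769 of them higher and 1698 lower. At least 32-fold differences were called for 61 genes that were higher and 72 that were lower in ATM HFD. All 5 ATM HFD libraries lay above all 4 Cx3cr1pos HFD libraries for 2882 genes (18.9%) and below them for 2039 (13.3%). These counts use CPM without TMM factors, which were 1 to 1.14 in ATM HFD and 0.937 to 1.02 in Cx3cr1pos HFD. TMM scaling lowers most ATM HFD levels relative to Cx3cr1pos HFD, and how far the excess of the first count depends on the scaling was not tested. The median log2 fold change of all genes was -0.03, to be read beside the medians of the gene lists. The shares of 18.9% higher and 20.8% lower are to be read beside the counts of those lists. Higher genes made up 47.6% of the calls with TMM scaling and 57.6% of 6078 calls with scaling to total counts alone, which moved the median to 0.068.

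**Figure D1:**
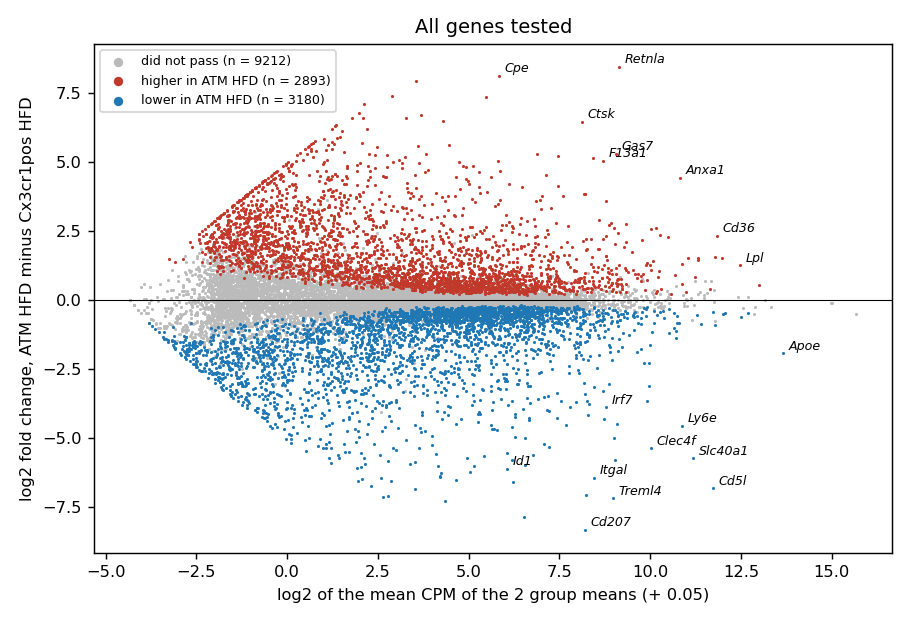
Log2 fold change (ATM HFD minus Cx3cr1pos HFD) of each gene tested against the log2 of the mean CPM of both groups. Red points are the 2893 genes that were higher and blue points the 3180 that were lower in ATM HFD at an adjusted p under 0.05, and grey points did not pass.

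Retnla, which encodes the secreted resistin-like protein RELM-alpha induced by interleukin-4 in macrophages, had the largest rise of the genes whose groups did not overlap and whose higher mean reached 20 CPM. It had 737, 1498, 1163, 847 and 1423 CPM in ATM HFD, against 2.61, 1.36, 4.94 and 3.07 CPM in Cx3cr1pos HFD and 1.51 to 11.1 CPM in HFD KC. Every ATM HFD library lay above every liver library of this diet (log2 fold change 8.44 ± 0.61 SE, adjusted p = 1.5e-08). Ctsk, the collagen-degrading lysosomal protease cathepsin K, had 584, 623, 516, 608 and 443 CPM in ATM HFD and 3.35, 2.41, 2.95 and 14.3 CPM in Cx3cr1pos HFD. The groups did not overlap, the highest Cx3cr1pos HFD value was that of hfd2, and the log2 fold change of 6.47 ± 0.85 (adjusted p = 1.3e-05) was 7.54 without that library. Gas7, a protein of membrane and actin remodelling, had 835, 1049, 968, 1224 and 1131 CPM in ATM HFD and 17.5, 16.7, 18.3 and 45.8 CPM in Cx3cr1pos HFD, a log2 fold change of 5.29 ± 0.56 (adjusted p = 1.3e-06) and of 5.87 without hfd2.

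The other genes among the 12 largest rises were lower in level. Cpe, the peptide-processing carboxypeptidase E, averaged 114 ± 15.2 CPM in ATM HFD and 0.323 ± 0.181 CPM in Cx3cr1pos HFD (log2 fold change 8.12 ± 0.31). Rgs18, a regulator of G protein signalling of blood cells, averaged 229 ± 40 CPM in ATM HFD and 5.4 ± 2.58 CPM in Cx3cr1pos HFD (log2 fold change 5.29 ± 0.53, and 5.76 without hfd2). Il1rl1, the receptor of interleukin-33, averaged 27.5 ± 4.49 CPM in ATM HFD and 0.624 ± 0.525 CPM in Cx3cr1pos HFD. The adhesion gene Nrcam, the small heat shock gene Hspb7, the actin-capping gene Tmod1, the matrix gene Mamdc2 and the protocadherin gene Pcdh7 had log2 fold changes of 7.93, 7.34, 6.72, 6.5 and 5.63. Tpsb2, a mast cell tryptase, had 9.46, 42.5, 45.1, 9.93 and 11.9 CPM in ATM HFD and 0.039, 1.26, 0.0614 and 0.098 CPM in Cx3cr1pos HFD (log2 fold change 5.6 ± 1.1). The mast cell chymase gene Cma1 had 5.45, 20.8, 22.2, 5.82 and 8.69 CPM in ATM HFD and 0.312, 1.39, 0.0614 and 0.0327 CPM in Cx3cr1pos HFD, so both were highest in ATM HFD hf2 and hf3, and the part of mast cells in these genes was not tested.

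Genes of lipid handling and secreted proteins were among those that gained the most CPM in ATM HFD. Lpl, the lipase that frees fatty acids from lipoproteins, averaged 8280 ± 943 CPM in ATM HFD and 3210 ± 756 CPM in Cx3cr1pos HFD, and Cd36, the fatty acid and oxidised LDL receptor, 6188 ± 785 CPM in ATM HFD and 1133 ± 457 CPM in Cx3cr1pos HFD. Selenop, a secreted selenium carrier, averaged 6061 ± 688 CPM in ATM HFD and 1946 ± 339 CPM in Cx3cr1pos HFD, and Dhrs3, a retinal reductase, 3775 ± 474 CPM in ATM HFD and 1301 ± 68.2 CPM in Cx3cr1pos HFD. The chemokine gene Ccl6 averaged 3840 ± 1361 CPM in ATM HFD and 1259 ± 287 CPM in Cx3cr1pos HFD. Anxa1, the phospholipid-binding annexin A1, had 2753, 3992, 3490, 3493 and 3604 CPM in ATM HFD and 129, 92.8, 126 and 247 CPM in Cx3cr1pos HFD (log2 fold change 4.43 ± 0.51, adjusted p = 2.9e-06). None of these genes overlapped between the groups, nor did the droplet gene Plin2. Lyz2, lysozyme M, gained as well but overlapped, with 7385 to 12212 CPM in ATM HFD and 5597 to 7678 CPM in Cx3cr1pos HFD (log2 fold change 0.56 ± 0.16, adjusted p = 0.011).

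Cd207, the C-type lectin langerin, had the largest fall. It had 1.48, 1.82, 2.46, 2.21 and 1.76 CPM in ATM HFD, against 578, 741, 465 and 586 CPM in Cx3cr1pos HFD and 146 to 437 CPM in HFD KC, a log2 fold change of -8.31 ± 0.31 (adjusted p = 3.2e-12). Treml4, a receptor of nonclassical monocytes and splenic macrophages, had 8.77, 8.19, 9.02, 5.78 and 5.13 CPM in ATM HFD and 1000, 1245, 975 and 799 CPM in Cx3cr1pos HFD (log2 fold change -7.17 ± 0.21, adjusted p = 2.9e-13). Itgal, the LFA-1 integrin alpha chain, had 7.39, 8.34, 9.91, 8.41 and 8.46 CPM in ATM HFD and 712, 690, 773 and 598 CPM in Cx3cr1pos HFD (log2 fold change -6.44 ± 0.13, adjusted p = 1.2e-15, the smallest of all genes). In all of these the groups were apart and the HFD KC level was on the side of the Cx3cr1pos HFD level, with 959 to 1394 CPM for Treml4 and 596 to 821 CPM for Itgal.

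Adamdec1, a secreted metalloprotease-like protein of macrophages, averaged 0.797 ± 0.102 CPM in ATM HFD and 184 ± 41.9 CPM in Cx3cr1pos HFD (log2 fold change -7.85 ± 0.24). Clec1b, the podoplanin receptor CLEC-2, averaged 4.76 ± 0.663 CPM in ATM HFD and 599 ± 185 CPM in Cx3cr1pos HFD (log2 fold change -7.07 ± 0.21). The globin gene Adgb and the potassium channel gene Kcnj10 had log2 fold changes of -6.51 and -6.37. Uox and Fabp1, an enzyme and a lipid carrier of hepatocytes, averaged 0.145 and 0.409 CPM in ATM HFD and 22.6 and 36.6 CPM in Cx3cr1pos HFD. Clec4g, a lectin of liver sinusoidal endothelium, averaged 1.59 ± 0.238 CPM in ATM HFD and 147 ± 34.3 CPM in Cx3cr1pos HFD. All 20 hepatocyte markers fell, with a summed level of 3.58 to 4.99 CPM in ATM HFD and 118 to 177 CPM in Cx3cr1pos HFD, and 11 of 13 sinusoidal endothelial markers fell (339 to 866 CPM in ATM HFD and 1474 to 2439 CPM in Cx3cr1pos HFD). The part of these cells in Uox, Fabp1 and Clec4g was not tested.

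**Figure D2:**
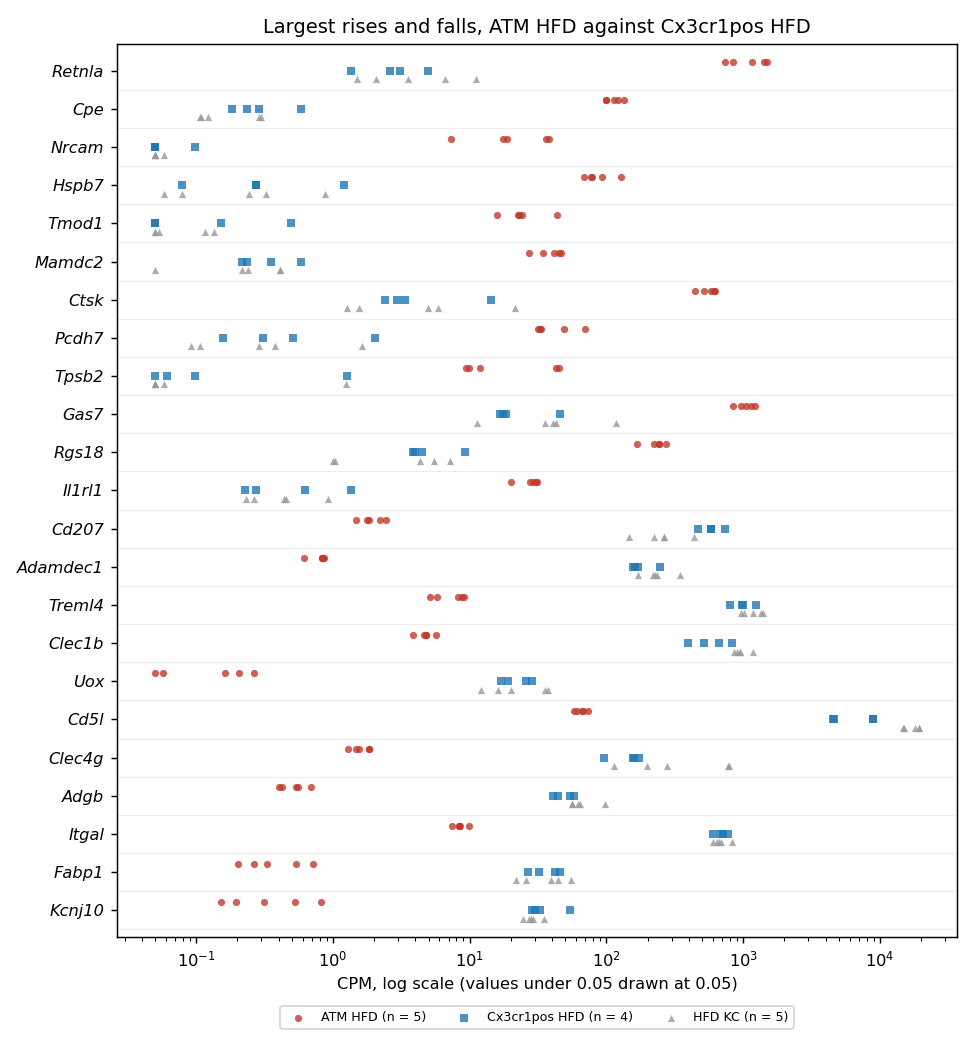
CPM on a log axis of the 12 genes with the largest rises (Retnla to Il1rl1) and of genes among the 12 with the largest falls (Cd207 to Kcnj10). Each point is a library of ATM HFD (red circles), Cx3cr1pos HFD (blue squares) or HFD KC (grey triangles), and the red and blue points of each gene do not overlap.

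The largest losses in CPM were of abundant liver macrophage genes. Apoe, the lipoprotein carrier of cholesterol efflux, had 4549, 4823, 4624, 5233 and 9355 CPM in ATM HFD and 20608, 17829, 18689 and 23992 CPM in Cx3cr1pos HFD (log2 fold change -1.92 ± 0.24, adjusted p = 8.9e-06). Cd5l, a secreted scavenger protein under LXR control, had 72.8, 60.5, 67, 66 and 58.2 CPM in ATM HFD and 4552, 8953, 4610 and 8937 CPM in Cx3cr1pos HFD (log2 fold change -6.81 ± 0.25, adjusted p = 2.6e-12). The ATM HFD libraries were close together, while hf2 and hfd2 of Cx3cr1pos HFD were higher than hf1 and hf3. Ly6e, a GPI-anchored interferon-induced protein, averaged 163 ± 35.5 CPM in ATM HFD and 3593 ± 355 CPM in Cx3cr1pos HFD. Ctss, cathepsin S of antigen processing, and B2m, the light chain of MHC class I, fell by 0.62 ± 0.09 and 0.91 ± 0.12 on the log2 scale. C1qb, a chain of the first complement component, overlapped, with 4696 to 6427 CPM in ATM HFD and 6367 to 8247 CPM in Cx3cr1pos HFD (log2 fold change -0.45 ± 0.13, adjusted p = 0.01).

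Of 15 Kupffer cell identity genes, 14 fell and 1 rose, with a median log2 fold change of -4.5. Of the 15, 13 were also members of other lists. Slc40a1, the iron exporter ferroportin, had 72.7, 121, 91.1, 66.1 and 116 CPM in ATM HFD and 2770, 7391, 2626 and 5454 CPM in Cx3cr1pos HFD (log2 fold change -5.72 ± 0.34, adjusted p = 1.4e-09). Clec4f, a galactose-binding lectin of Kupffer cells, had 51, 55.9, 59.6, 50.5 and 50.5 CPM in ATM HFD and 1055, 2787, 1039 and 3302 CPM in Cx3cr1pos HFD (log2 fold change -5.37 ± 0.33, adjusted p = 2.4e-09). In both genes the groups were apart, and hf2 and hfd2 were again the higher libraries of Cx3cr1pos HFD. HFD KC had 13203 to 21805 CPM of Clec4f, above all of them. The summed level of the list was 557 to 694 CPM in ATM HFD, 12760 to 25444 CPM in Cx3cr1pos HFD and 47200 to 68117 CPM in HFD KC. In bulk libraries, fewer cells of a type and less RNA per cell cannot be told apart.

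Vsig4, the complement receptor CRIg, averaged 46.7 ± 9.26 CPM in ATM HFD and 595 ± 295 CPM in Cx3cr1pos HFD (log2 fold change -3.77 ± 0.29). The scavenger receptor gene Marco and the complement component gene C6 were at most 38.5 and 78.3 CPM in any of the 9 libraries and at least 490 and 665 CPM in HFD KC. Cd163, the haemoglobin-haptoglobin receptor, was the gene of the list that rose. It had 254, 141, 102, 138 and 175 CPM in ATM HFD and 34.3, 26, 18 and 41.1 CPM in Cx3cr1pos HFD (log2 fold change 2.35 ± 0.38, adjusted p = 0.00011), and 280 to 1184 CPM in HFD KC. Its groups did not overlap.

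Of 34 transcription factors of tissue macrophages, 18 fell and 5 rose (median -0.6). Nr1h3, the oxysterol receptor LXR-alpha, had 83.1, 121, 119, 115 and 111 CPM in ATM HFD and 781, 933, 950 and 648 CPM in Cx3cr1pos HFD (log2 fold change -3.02 ± 0.14, adjusted p = 8.1e-11). The groups were apart. Its partner gene Rxra fell by 2.66 ± 0.2 on the log2 scale, and Spic, the factor of iron-recycling macrophages, averaged 10.6 ± 0.938 CPM in ATM HFD and 191 ± 49 CPM in Cx3cr1pos HFD. Among the factors that rose were Rbpj, the effector of Notch signalling (79.6 ± 20.9 CPM in ATM HFD and 19.8 ± 3.63 CPM in Cx3cr1pos HFD), Klf4, a monocyte factor (174 ± 60.7 CPM in ATM HFD and 46.3 ± 10.8 CPM in Cx3cr1pos HFD), and Mitf, a factor of osteoclasts and lysosomes (87.2 ± 6.74 CPM in ATM HFD and 42 ± 11.9 CPM in Cx3cr1pos HFD).

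Genes of BMP, TGF-beta and Notch signalling, among them receptors and targets, fell for 14 of 23, and the number that rose was 0 (median -0.75). Rbpj, the Notch effector that rose, was not in this list. The helix-loop-helix inhibitor gene Id1 averaged 1.98 ± 0.468 CPM in ATM HFD and 132 ± 20 CPM in Cx3cr1pos HFD (log2 fold change -6.11 ± 0.21, adjusted p = 9.8e-13). Id3, of the same family, had 65.5, 41.7, 35, 50.6 and 50.5 CPM in ATM HFD and 1055, 1094, 1320 and 715 CPM in Cx3cr1pos HFD (log2 fold change -4.5 ± 0.22, adjusted p = 1.5e-10). The groups of Id3 were apart, and Id2 fell by 2.26 ± 0.13. The inhibitory SMAD genes Smad7 and Smad6 fell by 3.3 and 4.21, and the Notch targets Hes1 and Hey1 by 3.07 and 3.88 on the log2 scale. Tgfbr1, the type I receptor of TGF-beta, fell by 1.74 ± 0.19, while the receptor gene Tgfbr2 and its coreceptor gene Eng did not pass, nor did Notch1 or Notch2.

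Perivascular resident macrophage genes were mostly higher in ATM HFD: 14 of 18 rose and 2 fell (median 2.46). The summed level of the list was 9750 to 12979 CPM in ATM HFD and 3184 to 4883 CPM in Cx3cr1pos HFD. Kupffer cells also held much of it, with 6552 to 8849 CPM in HFD KC and 9891 to 11820 CPM in STD KC. F13a1, the transglutaminase of coagulation factor XIII, had 1282, 889, 340, 659 and 864 CPM in ATM HFD and 20.1, 17.2, 18.4 and 36.5 CPM in Cx3cr1pos HFD (log2 fold change 5.04 ± 0.6, adjusted p = 4.2e-06). The groups were apart. Cbr2, a carbonyl reductase, averaged 74.9 ± 23.6 CPM in ATM HFD and 2.81 ± 1.01 CPM in Cx3cr1pos HFD (log2 fold change 4.63 ± 0.36). Gas6, the ligand of the receptors Axl and Mertk, rose by 3.65 ± 0.32, and Pf4, the chemokine platelet factor 4, by 2.32 ± 0.23 on the log2 scale. Folr2, the folate receptor beta, rose by 1.84 ± 0.27, and HFD KC had 706 to 1341 CPM of it. Lyve1, the hyaluronan receptor, did not pass, with 15.1 to 63.2 CPM in ATM HFD and 33 to 38.7 CPM in Cx3cr1pos HFD. The mannose receptor gene Mrc1 had 2296, 864, 704, 1056 and 820 CPM in ATM HFD and 493, 630, 443 and 785 CPM in Cx3cr1pos HFD (log2 fold change 0.88 ± 0.3, adjusted p = 0.028). Its groups overlapped, and it did not pass without ATM HFD hf1 (log2 fold change 0.48) or without Cx3cr1pos HFD hf1 (0.79) or hf3 (0.76), nor in a fit of the 9 libraries alone (0.93).

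Alternative activation genes went both ways: of 17, 6 rose and 6 fell (median -0.14). Besides Retnla, the galactose-type lectins Clec10a and Mgl2 rose. Clec10a had 472, 344, 287, 237 and 335 CPM in ATM HFD and 19.8, 18.8, 16.4 and 16.4 CPM in Cx3cr1pos HFD (log2 fold change 4.14 ± 0.19, adjusted p = 8.1e-11), and Mgl2 averaged 113 ± 27.7 CPM in ATM HFD and 4.11 ± 1.19 CPM in Cx3cr1pos HFD. Egr2, a STAT6-induced factor, rose by 1.75 ± 0.31 on the log2 scale. Tgm2, transglutaminase 2, went the other way, with 63.7, 35.2, 46.4, 47.4 and 44.5 CPM in ATM HFD and 540, 561, 545 and 611 CPM in Cx3cr1pos HFD (log2 fold change -3.66 ± 0.17, adjusted p = 8.1e-11). Neither Clec10a nor Tgm2 overlapped between the groups. Chil3, a chitinase-like protein, did not pass and was at most 21.1 CPM in any of the 9 libraries. Mgl2 and Clec10a are related in sequence, and among near-identical copies, as in the Cd209, Ly6 and H2 families, reads may be divided.

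The proximal promoter of Retnla is shown because the gene leads the rises and answers to STAT6 in macrophages. It is the RefSeq sequence of GRCm38.p6, chr16:48842359-48842658 on the plus strand, from 250 bases before to 50 after the start, read 5′ to 3′, with the match to TTCNNNNGAA, the core of a STAT6 site, in capitals. It was chosen with the matches known, and the promoter windows of Mgl2 and Egr2 held no match.
Retnla: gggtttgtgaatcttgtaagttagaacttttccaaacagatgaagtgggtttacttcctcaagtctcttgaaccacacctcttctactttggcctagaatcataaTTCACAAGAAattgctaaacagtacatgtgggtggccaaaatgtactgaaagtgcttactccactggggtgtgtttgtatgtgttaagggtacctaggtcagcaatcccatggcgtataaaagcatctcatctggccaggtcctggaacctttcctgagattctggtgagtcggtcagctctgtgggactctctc
The motif, searched on both strands, occurred in the promoters of 5 of 12 alternative activation genes with a sequence (41.7%), in 5 of 19 interferon-stimulated genes (26.3%) and in 2164 of 27025 mouse genes (8.01%). The match is a description of these letters.

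Lipid-associated macrophage genes rose for 13 of 22 and fell for 2 (median 1.12, range -1.92 to 2.76). The summed level of the list overlapped, with 79006 to 91066 CPM in ATM HFD and 67875 to 94161 CPM in Cx3cr1pos HFD. Cd36 had 5561, 7008, 5195, 6375 and 6802 CPM in ATM HFD and 868, 1022, 836 and 1808 CPM in Cx3cr1pos HFD (log2 fold change 2.34 ± 0.29, adjusted p = 7.5e-06). Lpl had 7430, 9766, 8193, 8487 and 7524 CPM in ATM HFD and 2870, 2911, 2722 and 4338 CPM in Cx3cr1pos HFD (log2 fold change 1.26 ± 0.17, adjusted p = 1.7e-05). In both genes the groups were apart and hfd2 was the highest library of Cx3cr1pos HFD. Ctsl, cathepsin L, rose by 2.35 ± 0.27 and Lgals1, galectin 1, by 2.76 ± 0.32 on the log2 scale. Trem2, the lipid-sensing receptor that marks such cells, averaged 1035 ± 113 CPM in ATM HFD and 556 ± 111 CPM in Cx3cr1pos HFD (log2 fold change 0.79 ± 0.28, adjusted p = 0.034), against 101 to 360 CPM in HFD KC. It did not pass without ATM HFD hfd2 (log2 fold change 0.79) or without Cx3cr1pos HFD hf1, hf2 or hf3 (0.74, 0.8 and 0.72), nor with the hfd libraries of both groups left out (0.94). Spp1, the matrix protein osteopontin, had 1882, 362, 296, 1020 and 210 CPM in ATM HFD and 487, 246, 307 and 583 CPM in Cx3cr1pos HFD, and Gpnmb, a lysosomal glycoprotein, 3357, 3838, 3294, 3956 and 3953 CPM in ATM HFD and 1474, 1513, 1626 and 3845 CPM in Cx3cr1pos HFD. Neither passed in the fit of 17 libraries (adjusted p = 0.41 for Spp1 and 0.44 for Gpnmb), and Gpnmb was highest by far in hfd2 within Cx3cr1pos HFD. The log2 fold change of Gpnmb was 0.69, and 1.24 without hfd2, which did not pass either, although its groups were then apart. These tests took the spread from all libraries fitted, Kupffer cells included, so a gene that did not pass may still differ between the groups. In a fit of the 9 libraries alone, Trem2 passed (0.83) and Gpnmb did not (0.73).

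Genes of lipid uptake, storage and lipolysis rose for 14 of 28 and fell for 4, or 1 without ATM HFD hf2 or Cx3cr1pos HFD hfd2 and 2 without ATM HFD hf1 (median 0.58). Plin2, which coats lipid droplets, had 5903, 4930, 4801, 5294 and 6052 CPM in ATM HFD and 1736, 1538, 1732 and 1891 CPM in Cx3cr1pos HFD (log2 fold change 1.55 ± 0.15, adjusted p = 4e-07). Angptl4, a secreted inhibitor of lipoprotein lipase, rose by 2.06 ± 0.23, the fatty acid transporter gene Slc27a1 by 2.28 ± 0.38 and Fabp4, the fatty acid binding protein of adipocytes and macrophages, by 2.7 ± 0.43 on the log2 scale. Msr1, the scavenger receptor for modified LDL, averaged 294 ± 93.4 CPM in ATM HFD and 900 ± 146 CPM in Cx3cr1pos HFD (log2 fold change -1.7 ± 0.21). Of 10 adipocyte markers tested 5 rose and 2 fell, or 1 without ATM HFD hf1 or Cx3cr1pos HFD hf3 or hfd2. The summed level of the 15 in the table was 365 to 532 CPM in ATM HFD and 100 to 140 CPM in Cx3cr1pos HFD, of which Fabp4 made 311 to 465 CPM in ATM HFD and 40.5 to 62.5 CPM in Cx3cr1pos HFD. The part of adipocytes in the lipid genes was not tested.

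LXR targets and cholesterol efflux genes fell for 13 of 19 and rose for 2 (median -0.83), beside the lower Nr1h3. Apoc1 and Apoc2, apolipoproteins of the Apoe locus, fell by 4.67 and 2.72, and the desaturase genes Scd2 and Scd1 by 2.94 ± 0.2 and 2.67 ± 0.36 on the log2 scale. The sterol exporter gene Abcg1 averaged 1340 ± 180 CPM in ATM HFD and 2235 ± 71 CPM in Cx3cr1pos HFD (log2 fold change -0.83 ± 0.12). Abca1, the other exporter, overlapped, with 190 to 235 CPM in ATM HFD and 223 to 274 CPM in Cx3cr1pos HFD (log2 fold change -0.38 ± 0.11, adjusted p = 0.014). Abca1 did not pass without ATM HFD hf2 or hfd2 (-0.3 and -0.32) or Cx3cr1pos HFD hf2 or hfd2 (-0.29 and -0.25). Nor did it with total counts (-0.27) or with the hfd libraries of both groups left out (-0.32). Pltp, the phospholipid transfer protein, rose by 0.85 ± 0.14.

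Cholesterol synthesis genes rose for 9 of 24, or 5 without Cx3cr1pos HFD hf3, and fell for 0 (median 0.35). Msmo1, a sterol methyl oxidase, rose by 0.95 ± 0.15 and Hmgcs1, HMG-CoA synthase, by 0.76 ± 0.12 on the log2 scale. Fatty acid oxidation genes rose for 9 of 24 and fell for 3 (median 0.16), among them Acadm, the medium-chain acyl-CoA dehydrogenase (111 ± 12.2 CPM in ATM HFD and 60.9 ± 2.79 CPM in Cx3cr1pos HFD, log2 fold change 0.77 ± 0.11). Of 25 respiratory chain genes 3 rose and 1 fell, where 39.7% of all genes were called. With total counts 6 rose, and with the name prefix as a term 5.

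Glycolysis and pentose phosphate genes fell for 14 of 22, or 9 with the hfd libraries of both groups left out, and rose for 2 (median -0.44). Hk2, the inducible hexokinase, had 18.8, 18.7, 23.4, 18.6 and 13.3 CPM in ATM HFD and 124, 116, 109 and 98.4 CPM in Cx3cr1pos HFD (log2 fold change -2.69 ± 0.18, adjusted p = 7.7e-09). The groups were apart, and the HFD KC level was 74.4 to 138 CPM. Taldo1 and Tkt, transaldolase and transketolase, fell by 1.4 and 0.7, the phosphofructokinase gene Pfkl by 1.46 and Ldha, lactate dehydrogenase A, by 0.62 on the log2 scale. The other phosphofructokinase genes, Pfkm and Pfkp, rose by 0.71 and 0.47.

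**Figure D3:**
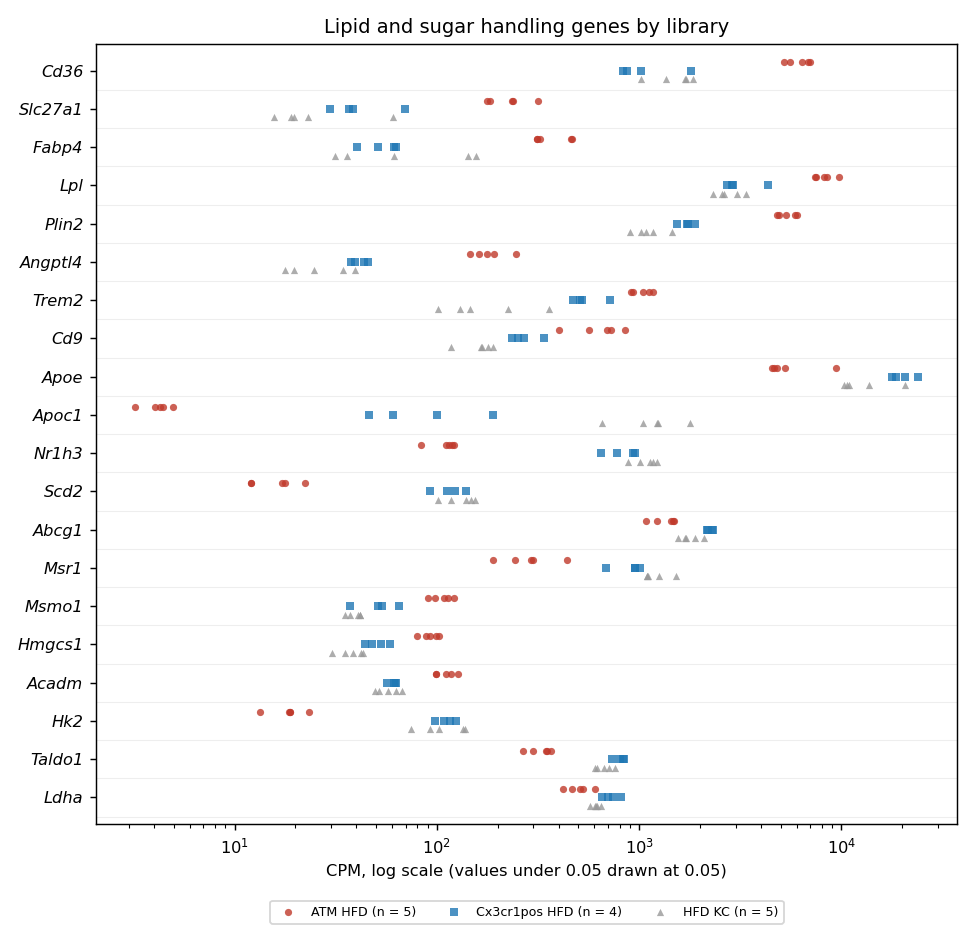
CPM on a log axis of genes of fatty acid uptake and storage, lipoprotein and LXR genes, cholesterol synthesis, fatty acid oxidation and sugar metabolism. Each point is a library of ATM HFD (red circles), Cx3cr1pos HFD (blue squares) or HFD KC (grey triangles); Cd36 had 5195 to 7008 CPM in ATM HFD and 836 to 1808 CPM in Cx3cr1pos HFD, and Hk2 13.3 to 23.4 CPM in ATM HFD and 98.4 to 124 CPM in Cx3cr1pos HFD.

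Interferon-stimulated genes fell for 23 of 25 and rose for 0 (median -1.87). Leaving out any 1 of the 9 libraries left 23 falls. Irf7, the interferon regulatory factor that amplifies the response, had 47.1, 53.9, 41.2, 58.2 and 97.1 CPM in ATM HFD and 737, 701, 1027 and 828 CPM in Cx3cr1pos HFD (log2 fold change -3.88 ± 0.21, adjusted p = 5.4e-10). Isg15, a ubiquitin-like modifier, had 15.7, 16, 10, 12.7 and 13.1 CPM in ATM HFD and 62.4, 56.3, 91.3 and 48.2 CPM in Cx3cr1pos HFD (log2 fold change -2.34 ± 0.2, adjusted p = 1.1e-07). The groups were apart in both. Usp18, which removes ISG15 from proteins, fell by 2.88 ± 0.18, Oas3, a synthase of the RNase L activator, by 3.81 ± 0.25, Ifit3, an antiviral protein, by 3.2 ± 0.24 and the signal transducer Stat2 by 1.79 ± 0.17 on the log2 scale. HFD KC had 1101 to 1303 CPM of Irf7 and 35 to 64 CPM of Isg15, also above the ATM HFD level.

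Promoters of 4 of these genes are shown because type I interferon acts on genes through such elements. They are the 4 with the most matches, and the window of Irf7 held none. They are RefSeq sequences of GRCm38.p6, 250 bases before to 50 after the start, read 5′ to 3′ on the strand of the gene, with matches to GAAANNGAAA or its reverse complement in capitals: Isg15 at chr4:156200769-156201068 (minus strand), Ifit3 at chr19:34583279-34583578 (plus), Ifit1 at chr19:34640639-34640938 (plus) and Oas1a at chr5:120907476-120907775 (minus).
Isg15: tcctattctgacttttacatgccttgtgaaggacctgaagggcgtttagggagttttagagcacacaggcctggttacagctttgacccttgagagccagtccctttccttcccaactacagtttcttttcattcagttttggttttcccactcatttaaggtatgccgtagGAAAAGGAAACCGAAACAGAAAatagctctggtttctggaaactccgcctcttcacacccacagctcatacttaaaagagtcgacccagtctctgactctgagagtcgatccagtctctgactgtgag
Ifit3: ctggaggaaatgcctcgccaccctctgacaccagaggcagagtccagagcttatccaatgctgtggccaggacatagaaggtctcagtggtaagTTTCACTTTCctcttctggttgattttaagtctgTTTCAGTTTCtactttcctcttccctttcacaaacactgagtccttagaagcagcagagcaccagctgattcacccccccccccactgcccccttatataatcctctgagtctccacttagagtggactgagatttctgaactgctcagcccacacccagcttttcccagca
Ifit1: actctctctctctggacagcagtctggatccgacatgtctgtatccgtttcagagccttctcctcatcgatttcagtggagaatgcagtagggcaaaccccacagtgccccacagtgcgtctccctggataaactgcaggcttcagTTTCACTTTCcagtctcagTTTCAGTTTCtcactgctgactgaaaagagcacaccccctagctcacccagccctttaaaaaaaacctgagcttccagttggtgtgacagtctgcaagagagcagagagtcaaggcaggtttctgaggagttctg
Oas1a: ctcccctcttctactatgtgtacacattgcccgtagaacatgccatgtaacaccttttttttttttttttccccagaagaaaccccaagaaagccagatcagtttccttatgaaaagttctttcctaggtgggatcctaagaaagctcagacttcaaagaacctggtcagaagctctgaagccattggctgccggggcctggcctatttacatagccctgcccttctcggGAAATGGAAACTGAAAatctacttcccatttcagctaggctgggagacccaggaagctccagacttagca
Isg15 had 3 matches, and Ifit3, Ifit1 and Oas1a had 2 each, of which 1 in Oas1a overlaps a match to TTCNNNNGAA. The element, searched on both strands, occurred in 11 of 19 interferon-stimulated genes with a sequence (57.9%), in 3 of 11 MHC class I genes (27.3%), in 0 of 12 alternative activation genes and in 1079 of 27025 mouse genes (3.99%). Ifit1 averaged 11.2 ± 4.67 CPM in ATM HFD and 41.7 ± 10.2 CPM in Cx3cr1pos HFD (log2 fold change -1.98 ± 0.29), and Oas1a 60.4 ± 12.4 CPM in ATM HFD and 164 ± 18.7 CPM in Cx3cr1pos HFD (log2 fold change -1.53 ± 0.14). A match says nothing of the use of the site by a factor in these cells.

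All 13 MHC class I presentation genes fell, or 10 without ATM HFD hf2 (median -0.76), and 9 of the 13 did not overlap. The immunoproteasome genes Psmb9 and Psmb8 fell by 1.16 ± 0.13 and 1.05 ± 0.13 on the log2 scale. Of 14 MHC class II presentation genes 8 fell and 0 rose (median -0.62). Cd74, the invariant chain, had 38812 to 51455 CPM in ATM HFD and 49207 to 70324 CPM in Cx3cr1pos HFD and did not pass (adjusted p = 0.059), but did in a fit of the 9 libraries alone (log2 fold change -0.45). Cd86, a costimulator of T cells, had 139, 150, 97.5, 136 and 148 CPM in ATM HFD and 287, 464, 335 and 399 CPM in Cx3cr1pos HFD (log2 fold change -1.56 ± 0.17, adjusted p = 1.2e-06). Its groups were apart. B and plasma cells also express class II genes, and their markers fell for 8 of 11, with summed levels of 465 to 1933 CPM in ATM HFD and 984 to 3013 CPM in Cx3cr1pos HFD. Their part in the class II genes was not tested.

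Nonclassical monocyte genes fell for 10 of 14 and rose for 0 (median -2.0), led by Itgal and Treml4. Gngt2, a G protein subunit, averaged 54.5 ± 5.77 CPM in ATM HFD and 533 ± 74.1 CPM in Cx3cr1pos HFD (log2 fold change -3.39 ± 0.15), and Cd300e, an activating receptor, 3.07 ± 1.06 CPM in ATM HFD and 186 ± 48.1 CPM in Cx3cr1pos HFD (log2 fold change -5.98 ± 0.36). HFD KC had 437 to 751 CPM of Gngt2 and 250 to 785 CPM of Cd300e, also above the ATM HFD level. Nr4a1, the nuclear receptor that these monocytes need, did not pass (adjusted p = 0.44).

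Classical monocyte genes were mixed, with 4 of 15 higher and 6 lower (median -0.91). Fn1, the matrix protein fibronectin, had 1019, 508, 746, 637 and 428 CPM in ATM HFD and 16.6, 8.95, 12.5 and 31.4 CPM in Cx3cr1pos HFD (log2 fold change 5.15 ± 0.44, adjusted p = 9.2e-08). The groups were apart, and the calcium-binding protein genes S100a4 and S100a6 rose by 4.04 ± 0.27 and 3.35 ± 0.29 on the log2 scale. Plac8 and Ms4a4c, genes of Ly6C-high monocytes, fell by 3.64 ± 0.35 and 3.57 ± 0.25. Ccr2, the receptor that brings monocytes out of bone marrow, had 292, 293, 324, 149 and 145 CPM in ATM HFD and 697, 359, 600 and 249 CPM in Cx3cr1pos HFD, which overlap (log2 fold change -1.07 ± 0.33, adjusted p = 0.014, not passed without ATM HFD hfd1 at -0.89 or Cx3cr1pos HFD hf1 at -0.86). HFD KC had 14.7 to 41.9 CPM of Ccr2.

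Chemokine receptors fell for 11 of 17 and rose for 1, or 2 without ATM HFD hf2, hf3, hfd1 or hfd2 (median -1.07). Integrins fell for 10 of 17 and rose for 2 (median -1.05). Itga9, which binds matrix proteins, averaged 25.6 ± 4.47 CPM in ATM HFD and 268 ± 85.4 CPM in Cx3cr1pos HFD (log2 fold change -3.46 ± 0.23). Itgam, the CD11b chain of complement receptor 3, averaged 551 ± 131 CPM in ATM HFD and 113 ± 45 CPM in Cx3cr1pos HFD (log2 fold change 2.2 ± 0.33). Itgb2, the beta chain that pairs with Itgal and Itgam, averaged 1479 ± 119 CPM in ATM HFD and 1471 ± 142 CPM in Cx3cr1pos HFD and did not pass (log2 fold change -0.09 ± 0.12).

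Of 14 CC chemokine genes 7 rose and 5 fell (median 0.53). Ccl8, a ligand of monocyte and eosinophil receptors, had 504, 369, 111, 396 and 332 CPM in ATM HFD and 9.44, 6.46, 5.03 and 13.7 CPM in Cx3cr1pos HFD (log2 fold change 5.22 ± 0.58, adjusted p = 2.1e-06). The groups were apart. The CCR2 ligands Ccl2 and Ccl7 rose by 1.91 ± 0.38 and 2.62 ± 0.59, and the chemokine genes Ccl4, Ccl5 and Ccl3 fell by 2.1, 2.3 and 1.19 on the log2 scale. Of 11 CXC chemokine genes 5 rose and 2 fell (median 0.92). The neutrophil attractant Cxcl1 had 816, 812, 536, 589 and 683 CPM in ATM HFD and 70.3, 112, 128 and 35.5 CPM in Cx3cr1pos HFD (log2 fold change 2.91 ± 0.66, adjusted p = 0.0021), and Cxcl16, a scavenger receptor and CXCR6 ligand, fell by 1.61 ± 0.16.

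Cytokine and inflammasome genes rose for 9 of 23 and fell for 6 (median 0.73). Tnfsf9, the ligand 4-1BBL, rose by 2.71 ± 0.28, Il10 by 1.97 ± 0.37 and Tnf by 1.28 ± 0.33 on the log2 scale. Il1a averaged 4.29 ± 1.09 CPM in ATM HFD and 93.8 ± 23.7 CPM in Cx3cr1pos HFD (log2 fold change -4.53 ± 0.22), and Il18 fell by 1.73 ± 0.22. Immediate early and dissociation stress genes, which tissue digestion can switch on, rose for 10 of 25 and fell for 1, or 0 without Cx3cr1pos HFD hf3 (median 0.49). Ier3 and Egr1 rose by 2.13 ± 0.28 and 1.84 ± 0.45, and Fos did not pass (3984 ± 347 CPM in ATM HFD and 2894 ± 675 CPM in Cx3cr1pos HFD, adjusted p = 0.22). The summed level of these genes was 11133 to 15126 CPM in ATM HFD and 6597 to 10222 CPM in Cx3cr1pos HFD, and the part of tissue digestion in the chemokine and cytokine genes was not tested.

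Matrix metalloproteases and their inhibitors rose for 8 and fell for 8 of 19 (median -0.3). Timp2, an inhibitor, had 227, 224, 383, 182 and 215 CPM in ATM HFD and 50.8, 33.6, 45.6 and 28.1 CPM in Cx3cr1pos HFD (log2 fold change 2.53 ± 0.26, adjusted p = 9.6e-07). Mmp14, a membrane-bound collagenase, had 3.81, 4.17, 5.53, 4.68 and 3.4 CPM in ATM HFD and 112, 45.3, 102 and 29.2 CPM in Cx3cr1pos HFD (log2 fold change -4.12 ± 0.35, adjusted p = 1e-07). The groups were apart in both, and the sheddase gene Adam10 fell by 1.51 ± 0.09. Adipose stromal and preadipocyte markers rose for 10 of 15 and fell for 3, with summed levels of 945 to 1799 CPM in ATM HFD and 505 to 605 CPM in Cx3cr1pos HFD. Of these sums Gsn, the actin-severing protein gelsolin, made 738 to 1270 CPM in ATM HFD and 224 to 284 CPM in Cx3cr1pos HFD, and the other 14 markers, 207 to 529 CPM in ATM HFD and 264 to 340 CPM in Cx3cr1pos HFD, overlapped. Their part in the protease and inhibitor genes was not tested.

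Osteoclast and fusion genes rose for 5 and fell for 3 of 10 tested (median 0.49). Atp6v0d2, a proton pump subunit of osteoclasts, had 814, 974, 689, 971 and 1015 CPM in ATM HFD and 79.7, 87.2, 75.5 and 289 CPM in Cx3cr1pos HFD (log2 fold change 2.63 ± 0.62, adjusted p = 0.0028, and 3.45 without hfd2). Acp5, tartrate-resistant acid phosphatase, went the other way, with 126, 155, 170, 143 and 154 CPM in ATM HFD and 1868, 1925, 1915 and 1350 CPM in Cx3cr1pos HFD (log2 fold change -3.66 ± 0.14, adjusted p = 4.5e-12). The groups were apart in both. Vacuolar proton pump genes rose for 4 of 17 (23.5%) and fell for 0 (median 0.06), and rose for 7 without hfd2. Lysosomal hydrolases and cathepsins rose for 7 and fell for 7 of 30 (23.3% each, median -0.06), with 11 rises without hfd2. These shares of rises and of lysosomal falls were near those of all genes, of which 18.9% rose and 20.8% fell.

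Scavenger and uptake receptors and their bridging proteins rose for 7 of 24 and fell for 13 (median -1.15). Mfge8, which links phosphatidylserine on dying cells to integrins, had 484, 587, 455, 637 and 551 CPM in ATM HFD and 28.7, 36.5, 32.3 and 41.6 CPM in Cx3cr1pos HFD (log2 fold change 3.86 ± 0.44, adjusted p = 2.5e-06). The groups were apart. The receptor genes Mertk and Axl fell by 1.98 ± 0.22 and 1.89 ± 0.17 on the log2 scale, while Pros1, which encodes the Mertk ligand protein S, rose by 1.63 ± 0.24. C-type lectin genes rose for 8 of 23, or 5 without ATM HFD hf1, and fell for 9 (median 0.13). Complement genes rose for 6 and fell for 10 of 20 (median -0.44), and Cfp, properdin, fell by 1.18 ± 0.14.

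Iron and heme genes rose for 7 and fell for 7 of 20 (median 0.12), with 4 rises without Cx3cr1pos HFD hf1 and 4 falls without hf2. Steap3, the endosomal ferrireductase, had 157, 153, 148, 151 and 147 CPM in ATM HFD and 19.1, 19.5, 18.7 and 26.6 CPM in Cx3cr1pos HFD (log2 fold change 2.75 ± 0.22, adjusted p = 6.1e-08). The groups were apart. Metallothionein and zinc transport genes rose for 4 of 10 and fell for 3 (median 0.59), and the metal-binding genes Mt2 and Mt1 rose by 4.45 ± 0.4 and 1.59 ± 0.21 on the log2 scale. NRF2 and antioxidant genes fell for 9 of 20, or 5 without ATM HFD hfd2, and rose for 3 (median -0.46).

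Prostanoid and leukotriene genes rose for 5 of 16 and fell for 4 (median 0.73). Ptgs1, cyclooxygenase 1, had 53, 45.4, 39.6, 40.2 and 41.3 CPM in ATM HFD and 744, 1038, 668 and 798 CPM in Cx3cr1pos HFD (log2 fold change -4.3 ± 0.18, adjusted p = 1.9e-11). Alox5, the 5-lipoxygenase of leukotriene synthesis, had 98.8, 63.1, 52, 43.3 and 45.3 CPM in ATM HFD and 3.04, 3.77, 2.27 and 2.22 CPM in Cx3cr1pos HFD (log2 fold change 4.3 ± 0.41, adjusted p = 3.5e-07). The groups were apart in both, on opposite sides. Hpgd, which inactivates prostaglandins, fell by 2.15 ± 0.23, and Alox5ap, which presents substrate to the 5-lipoxygenase, rose by 1.45 ± 0.23.

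Purine and adenosine receptor genes fell for 7 of 14 and rose for 2, or 1 without Cx3cr1pos HFD hf1 or hf3 (median -0.81). The ADP receptor genes P2ry13 and P2ry12 fell by 5.32 ± 0.25 and 2.45 ± 0.21 on the log2 scale. Inhibitory and checkpoint receptors fell for 10 of 17 and rose for 2 (median -1.09), with Pilra, an inhibitory receptor, at 35.2 ± 9.51 CPM in ATM HFD and 586 ± 99.5 CPM in Cx3cr1pos HFD. Toll-like receptor and adaptor genes fell for 7 of 17, or 4 without ATM HFD hf2, and rose for 1, or 2 without ATM HFD hf3 and 3 without Cx3cr1pos HFD hfd2. Fc receptor genes fell for 5 of 9 tested and rose for 2 (median -0.48), with Fcgr4, an activating receptor of IgG, at 117 ± 44.3 CPM in ATM HFD and 503 ± 63.5 CPM in Cx3cr1pos HFD.

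Growth and angiogenic factor genes fell for 8 of 22, or 5 without ATM HFD hf1, and rose for 3, or 1 without Cx3cr1pos HFD hfd2. ER stress genes fell for 6 of 18 and rose for 2 (median -0.3). Cell cycle and DNA replication genes rose for 8 of 29 (27.6%, against 18.9% of all genes, median 0.34). They rose for 16 without Cx3cr1pos HFD hfd2 and for 5 without hf3. They fell for 2, or 1 without ATM HFD hf1, hf3, hfd1 or hfd2 or Cx3cr1pos HFD hf2 or hfd2. Ccnb2, cyclin B2, rose by 1.0 ± 0.17 and Pcna, the sliding clamp of replication, by 0.59 ± 0.08 on the log2 scale.

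**Figure D4:**
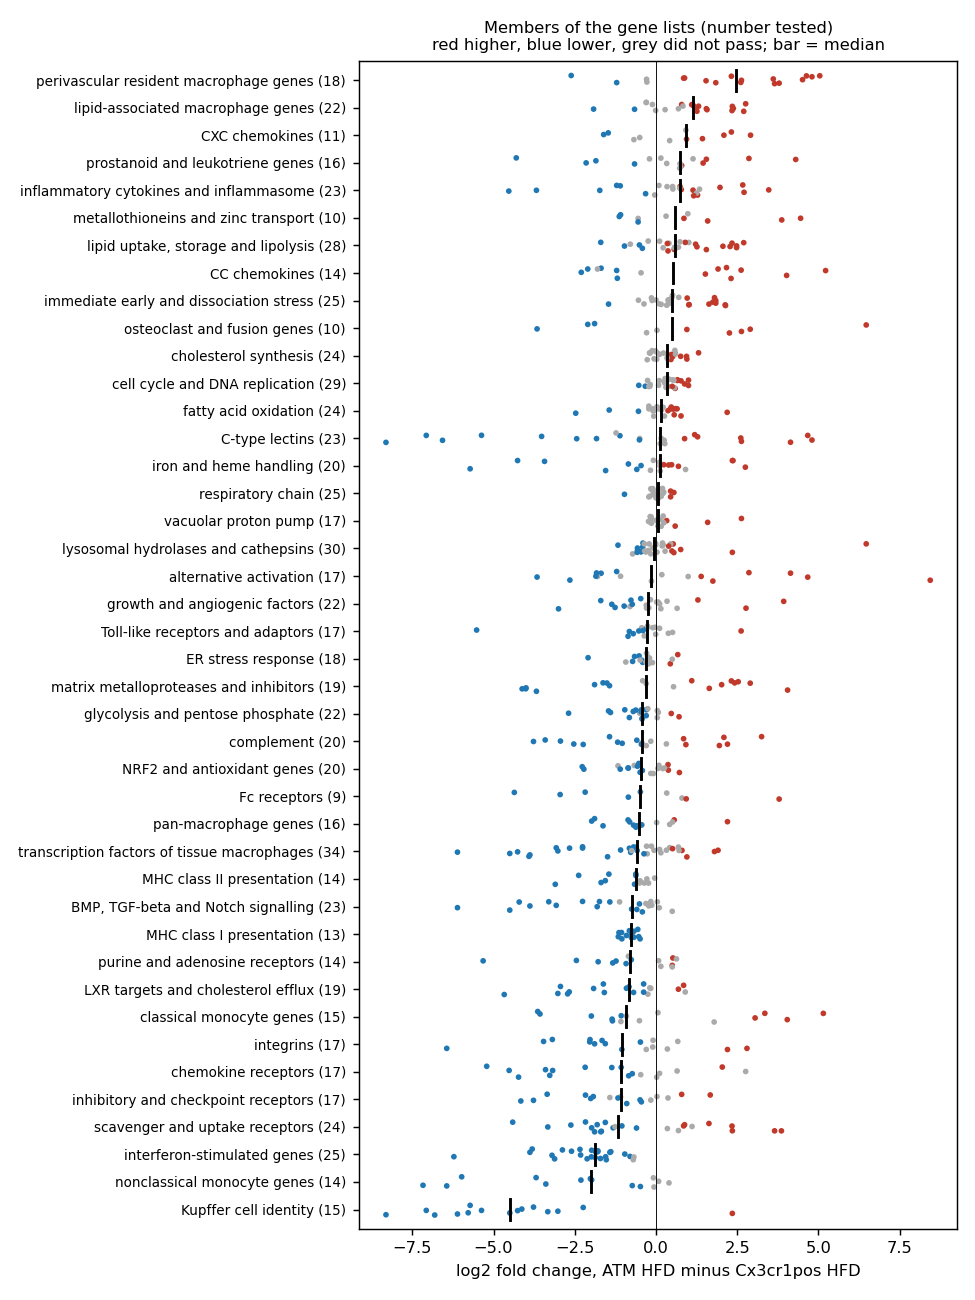
Log2 fold change (ATM HFD minus Cx3cr1pos HFD) of each member of the gene lists, sorted by the median (black bar), with the number of members tested in brackets. Red members were higher and blue lower at an adjusted p under 0.05; the median was -4.5 for Kupffer cell identity genes and 2.46 for perivascular resident macrophage genes.

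Markers of other cells differed in level between the groups, and the lists are given whole. Vascular endothelial markers fell for 10 of 12 and rose for 1, or 0 without Cx3cr1pos HFD hf3 or hfd2, with summed levels of 42 to 87.5 CPM in ATM HFD and 344 to 447 CPM in Cx3cr1pos HFD. Hepatic stellate markers fell for 7 of 9 tested and rose for 2 (501 to 708 CPM in ATM HFD and 166 to 235 CPM in Cx3cr1pos HFD). Ecm1, a secreted matrix protein, made 422 to 537 CPM in ATM HFD and 104 to 157 CPM in Cx3cr1pos HFD of these sums, while their defining gene Lrat had 0 to 0.196 CPM in ATM HFD and 3.35 to 7.38 CPM in Cx3cr1pos HFD. Dendritic cell markers fell for 7 of 12 (57.1 to 67.9 CPM in ATM HFD and 162 to 209 CPM in Cx3cr1pos HFD). T and NK cell markers fell for 7 of 17 and rose for 1, or 2 without ATM HFD hf1 (133 to 248 CPM in ATM HFD and 81.8 to 136 CPM in Cx3cr1pos HFD). Il7r, the interleukin 7 receptor, was the marker that rose, with 114 to 182 CPM in ATM HFD and 14.6 to 40.2 CPM in Cx3cr1pos HFD, and the others summed to 19 to 65.8 CPM in ATM HFD and 42 to 111 CPM in Cx3cr1pos HFD.

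Neutrophil markers rose for 2 of 9 tested, or 0 without ATM HFD hf1, and fell for 2 (33.2 to 114 CPM in ATM HFD and 106 to 135 CPM in Cx3cr1pos HFD). Csf3r, the G-CSF receptor, made 27 to 43.1 CPM in ATM HFD and 96.2 to 104 CPM in Cx3cr1pos HFD of these sums. S100a8, a calprotectin subunit, had 31.8, 2.44, 1.72, 3.04 and 2.48 CPM in ATM HFD, with hf1 far above the rest, and 0.702, 0.576, 0.399 and 1.93 CPM in Cx3cr1pos HFD (log2 fold change 3.05 ± 0.91, and 1.29 without hf1, which did not pass). Mast cell and basophil markers rose for 4 of 10 and fell for 2, or 1 without Cx3cr1pos HFD hf2 or hfd2 (30.9 to 96 CPM in ATM HFD and 22.2 to 34.4 CPM in Cx3cr1pos HFD), and without Tpsb2 the sums were 20.4 to 52.4 CPM in ATM HFD and 22.1 to 33.2 CPM in Cx3cr1pos HFD. Mesothelial markers rose for 3 of 8 and fell for 1 (1.48 to 9.71 CPM in ATM HFD and 7.03 to 8.46 CPM in Cx3cr1pos HFD), with 1 rise when ATM HFD hf2 or hf3 or Cx3cr1pos HFD hf1 or hf2 was left out. Platelet markers rose for 2 of 5 tested, or 1 without ATM HFD hf1 or any 1 Cx3cr1pos HFD library (5.91 to 26.9 CPM in ATM HFD and 3.9 to 4.34 CPM in Cx3cr1pos HFD), and without the platelet chemokine gene Ppbp the sums were 1.82 to 4.64 CPM in ATM HFD and 1.4 to 3.23 CPM in Cx3cr1pos HFD. Erythroid markers fell for 1 of 7 tested (2.2 to 11.5 CPM in ATM HFD and 5.85 to 20.8 CPM in Cx3cr1pos HFD), and 0 of 3 eosinophil markers tested passed by edgeR in either direction (13 to 40.2 CPM in ATM HFD and 10.1 to 23.2 CPM in Cx3cr1pos HFD). The part of these cells in the other results was not tested.

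**Figure D5:**
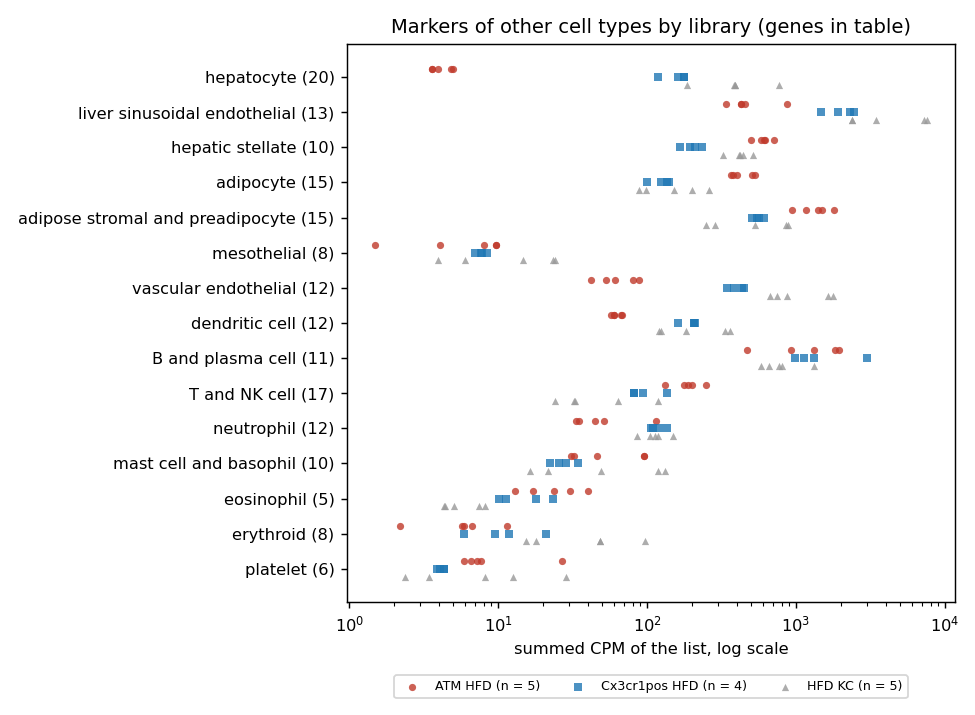
Summed CPM, on a log axis, of the markers of 15 other cell types in each library of ATM HFD (red circles), Cx3cr1pos HFD (blue squares) and HFD KC (grey triangles), with the number of genes in brackets. Hepatocyte markers sum to 3.58 to 4.99 CPM in ATM HFD and 118 to 177 CPM in Cx3cr1pos HFD, and adipose stromal markers to 945 to 1799 CPM in ATM HFD and 505 to 605 CPM in Cx3cr1pos HFD, most of it Gsn in ATM HFD; without Gsn they sum to 207 to 529 CPM in ATM HFD and 264 to 340 CPM in Cx3cr1pos HFD.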

How the data were processed

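The SMARTer kit served to amplify the RNA of sorted macrophages before sequencing, per the labels' protocols, and reads were processed with bcl2fastq, STAR 2.0.4b, Subread and featureCounts 1.4.5, per the submitters' processing notes. Genome build, annotation and strand setting are not given in the sources used here. The deposited values are raw counts per gene made by the authors; of 40824 entries, 276 were repeated identifiers, leaving 40548 genes. Overlapping and antisense genes may share reads.

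All 17 libraries (4 groups, taken from the source labels) were fitted in edgeR 4.0.16 (R 4.3.3, limma 3.58.1) with filterByExpr, TMM scaling and 1 coefficient per group, and the quasi-likelihood test of ATM HFD minus Cx3cr1pos HFD was two-sided with Benjamini-Hochberg adjustment over 15285 genes at 0.05. The common biological coefficient of variation was 0.297. CPM are counts over total counts, while fold changes use TMM and a prior count of 2. Standard errors are the fold change over the root of F. DESeq2 1.42.0, other scalings, filters, blocks and leaving out each library were tried. Genes named are the 12 largest rises and falls without overlap whose higher mean reached 20 CPM, the 8 largest changes in CPM each way, at most 4 genes from each list by lowest adjusted p, and the sort markers. Some genes that these rules name are not reported here. Further list members were named for their roles after their values were seen. The comparison and the gene lists were chosen with earlier results of these data known. Lists share members, so their counts are not independent of each other. Members also in other lists were 13 of 15 for Kupffer cell identity, 11 of 18 for perivascular and 13 of 22 for lipid-associated genes. They were 8 of 13 for sinusoidal endothelial and 0 of 20 for hepatocyte markers. RefSeq promoters were matched by symbol.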

Additional observations from a re-analysis of the deposited data

Results flagged for a closer look

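The 179 genes named in the text were each looked at in both groups. By Dixon's criterion, 36 of 358 groups held a library whose gap to its nearest neighbour was large for the range of its group. Chance gives about 1 in 20 groups for independent, normally distributed values of genes not chosen by their values. Some of these genes were named after their values were seen, so the 36 groups cannot be judged against that rate. The library with the most was Cx3cr1pos HFD hfd2, with 12, followed by ATM HFD hf1 with 10. Values are given as the library's level and the range of the others of its group.

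In Cx3cr1pos HFD hfd2, the level was higher than in the rest of the group for Atp6v0d2 at 289 CPM, against 75.5 to 87.2 CPM, C6 at 78.3 CPM, against 32.3 to 33.7 CPM, Ctsk at 14.3 CPM, against 2.41 to 3.35 CPM, and F13a1 at 36.5 CPM, against 17.2 to 20.1 CPM. Also in Cx3cr1pos HFD hfd2, the level was higher than in the rest of the group for Gas7 at 45.8 CPM, against 16.7 to 18.3 CPM, Gpnmb at 3845 CPM, against 1474 to 1626 CPM, Lpl at 4338 CPM, against 2722 to 2911 CPM, and Mt1 at 249 CPM, against 191 to 199 CPM. Also in Cx3cr1pos HFD hfd2, the level was higher than in the rest of the group for Rgs18 at 9.24 CPM, against 3.86 to 4.48 CPM, and Steap3 at 26.6 CPM, against 18.7 to 19.5 CPM. In Cx3cr1pos HFD hfd2, the level was lower than in the rest of the group for Acp5 at 1350 CPM, against 1868 to 1925 CPM and Egr1 at 48.7 CPM, against 184 to 199 CPM. In ATM HFD hf1, the level was higher than in the rest of the group for Ccl6 at 6216 CPM, against 2836 to 3653 CPM, Chil3 at 21.1 CPM, against 1.7 to 4.23 CPM, Ctsl at 3676 CPM, against 1528 to 2019 CPM, and Itga9 at 33.4 CPM, against 21.9 to 24.6 CPM. Also in ATM HFD hf1, the level was higher than in the rest of the group for Mrc1 at 2296 CPM, against 704 to 1056 CPM, Ppbp at 24.3 CPM, against 2.87 to 5.37 CPM, Mt1 at 1027 CPM, against 527 to 622 CPM, Mt2 at 177 CPM, against 65.1 to 80.2 CPM, and S100a8 at 31.8 CPM, against 1.72 to 3.04 CPM. In ATM HFD hf1, the level was lower than in the rest of the group for Nr1h3 at 83.1 CPM, against 111 to 121 CPM. In Cx3cr1pos HFD hf2, the level was higher than in the rest of the group for Adamdec1 at 247 CPM, against 157 to 171 CPM, Hpgd at 963 CPM, against 723 to 756 CPM, Kcnj10 at 53.9 CPM, against 28.4 to 32.4 CPM, and Lrat at 7.38 CPM, against 3.35 to 3.82 CPM. Also in Cx3cr1pos HFD hf2, the level was higher than in the rest of the group for Tpsb2 at 1.26 CPM, against 0.039 to 0.098 CPM. In Cx3cr1pos HFD hf2, the level was lower than in the rest of the group for Marco at 11.1 CPM, against 34.5 to 38.5 CPM. In ATM HFD hf3, the level was higher than in the rest of the group for Ahnak at 976 CPM, against 371 to 527 CPM, Rxra at 44.3 CPM, against 21.4 to 26.8 CPM, and Timp2 at 383 CPM, against 182 to 227 CPM. In ATM HFD hf3, the level was lower than in the rest of the group for Cd86 at 97.5 CPM, against 136 to 150 CPM. In Cx3cr1pos HFD hf3, the level was higher than in the rest of the group for Ccl5 at 214 CPM, against 72.5 to 80.4 CPM, and Tnfsf9 at 22.8 CPM, against 12.3 to 12.9 CPM. In ATM HFD hfd2, the level was higher than in the rest of the group for Apoe at 9355 CPM, against 4549 to 5233 CPM. In ATM HFD hf2, the level was lower than in the rest of the group for Adamdec1 at 0.616 CPM, against 0.831 to 0.854 CPM. What set these libraries apart was not tested.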

How the results depend on the processing

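The 6073 calls were 6029 with RLE size factors, 6078 with total counts, 6173 of 27136 genes with no filter, 5526 of 13486 with at least 20 counts in at least 4 libraries, and 6423 with DESeq2. A fit of the 9 libraries alone gave 5205, of the 14 HFD libraries 5464, and with the name prefix as a term 5781. With the hfd libraries of ATM HFD and Cx3cr1pos HFD left out and all Kupffer cell libraries kept, the calls were 4859. Leaving out 1 library gave 5246 to 6090. No gene called in both a variant and the reported fit changed direction. Same-named libraries (hf1, hf2, hf3 and hfd2) deviated together at r = 0.0583, 0.134, 0.204 and 0.0465. Not all were over 0.1, so the names were not taken as pairs; ATM HFD hf2, hf3 and hfd2 correlated best with their namesakes, as a hint from the data, and hf1 with Cx3cr1pos HFD hfd2 (0.0602). A fit with the replicate block gave 5994 calls in the 14 HFD libraries and 5086 in the 9. With the block in the 9, Mrc1 (0.76), Abca1 (-0.35), C1qb (-0.42) and S100a8 (2.25) did not pass and Gpnmb did (0.84), glycolysis genes fell for 9 and respiratory chain genes rose for 5. Of 3936 values of single genes under these alternatives, 3890 kept direction and side of the threshold. Of the others, 32 lost the threshold, 3 gained it and 11 changed sign, the last all in genes that had not passed. Itgb2 was 0.01 with total counts, and with the hfd libraries of both groups left out Chil3 was 0.48 and Notch2 -0.12. With 1 library left out, log2 fold changes ranged over -1.28 to 0.15 for Chil3, -0.17 to 0.03 for Itgb2 and -0.23 to 0.01 for Tgfbr2. Counts of list members moved by over 1.5 times in 111 of 2360 cases, in 37 of 118 counts. With total counts, 13 cell cycle, 8 proton pump and 9 prostanoid and leukotriene genes rose. With the hfd libraries of both groups left out, 4 cholesterol synthesis and 4 iron genes rose and 5 NRF2 genes fell. The cause of these moves was not tested. Levels near 0.1 CPM rest on about 3 counts, a limit that covers counting error only.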

Other observations

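Genes outside the lists, named after their values were seen, include the intermediate filament and nuclear lamina genes Vim and Lmna and the membrane scaffold gene Ahnak. Vim had 1206, 1631, 2360, 1749 and 2140 CPM in ATM HFD and 286, 210, 318 and 306 CPM in Cx3cr1pos HFD, and rose by 2.59 ± 0.19 on the log2 scale. Lmna and Ahnak rose by 3.83 ± 0.34 and 3.85 ± 0.33, and none of the 3 overlapped between the groups. The long noncoding RNA AW112010 averaged 30 ± 18.5 CPM in ATM HFD and 411 ± 112 CPM in Cx3cr1pos HFD (log2 fold change -3.87 ± 0.37, adjusted p = 4.1e-07, edgeR), and the noncoding RNA Mir99ahg rose by 3.22 ± 0.5. No test was made of what these genes share.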
